A study of Mus musculus with 8 samples.

Results

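The leukocytes of the mouse pia mater 24 h after a transient occlusion of the middle cerebral artery were compared with those of control pia. The 2 pia libraries held 6732 of the 32457 cells that the authors annotated over 8 libraries, 2810 in control pia and 3922 at 24 h. Each cell carried 1 of 21 deposited cluster names, and clusters with at least 30 cells in both pia libraries were kept. This left 14 clusters with 6333 of the 6732 cells, of which 10 were myeloid and 4 lymphoid. Each side was 1 library, so no difference between them could be tested. Any difference common to a library cannot be told apart from the time after stroke.

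Both libraries came from C57BL/6 mice, adult males by the study's methods. Stroke mice had a transient middle cerebral artery occlusion. Control mice are given as control in the labels and as naive, not operated, in the methods for single-cell sequencing, although figure legends of the study call them sham. Surgery and stroke therefore cannot be told apart if the methods hold. A fluorescent CD45 antibody was injected intravenously shortly before perfusion, which marks leukocytes inside vessels. The pia was dissected from the brain, digested with collagenase, and sorted for CD45+ cells that the injected antibody had not reached (CD45iv-CD45+). Cells were barcoded with a 10x Genomics 3' kit. The labels name more than 1 version of that chemistry without tying a version to a library. Both pia libraries were recorded with the same kit version, from the study's supplement. Mice were pooled, and the study gives a total of animals per compartment rather than the number in each library.

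The pia is the thin inner layer of the meninges and lies directly on the brain surface. Its resident macrophages, together with those around vessels and in the dura, are known as border or CNS-associated macrophages (CAM), which clear debris and sample the cerebrospinal fluid. After ischaemia, monocytes and neutrophils enter the border tissues from blood and skull marrow, and resident and recruited myeloid cells change their metabolism, lipid handling and cytokine output.

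The promoters of 3 genes are shown because the results below turn on them: Saa3 had no UMI in control border macrophages and many at 24 h, Slc7a11 was higher in every cluster that measured it, and Irgm1 fell furthest among the listed interferon genes in CAM_1 and Macro_2. Each window runs from 250 bases before to 50 bases after the start of the gene in RefSeq (GRCm38.p6), 5′ to 3′ on the strand of the gene. All 3 genes lie on the minus strand, at chr7:46715627-46715926, chr3:50443564-50443863 and chr11:48871371-48871670. Capitals mark the bases that match any of 6 motifs searched on both strands, namely the interferon-stimulated response element ISRE (GAAA and GAAA with any 2 bases between), the gamma-activated site GAS (TTCNNNGAA), the amino acid response element CARE (TGATGNAA), the antioxidant response element ARE (TGACNNNGC), an NF-kB site (GGGA and TTTCC with any base between) and a C/EBP site (TTGCNNAA).
Saa3: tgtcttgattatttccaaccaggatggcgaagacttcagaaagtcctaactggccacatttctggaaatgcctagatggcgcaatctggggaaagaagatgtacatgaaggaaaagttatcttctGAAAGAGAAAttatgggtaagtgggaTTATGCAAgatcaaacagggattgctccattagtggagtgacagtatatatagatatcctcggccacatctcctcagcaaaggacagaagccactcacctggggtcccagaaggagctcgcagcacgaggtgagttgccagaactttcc
Slc7a11: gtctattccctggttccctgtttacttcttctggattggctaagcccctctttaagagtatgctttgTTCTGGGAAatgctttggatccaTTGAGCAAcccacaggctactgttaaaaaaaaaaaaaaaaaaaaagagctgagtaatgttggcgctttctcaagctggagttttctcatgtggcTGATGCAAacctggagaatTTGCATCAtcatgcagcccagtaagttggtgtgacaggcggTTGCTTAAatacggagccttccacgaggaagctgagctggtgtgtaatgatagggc
Irgm1: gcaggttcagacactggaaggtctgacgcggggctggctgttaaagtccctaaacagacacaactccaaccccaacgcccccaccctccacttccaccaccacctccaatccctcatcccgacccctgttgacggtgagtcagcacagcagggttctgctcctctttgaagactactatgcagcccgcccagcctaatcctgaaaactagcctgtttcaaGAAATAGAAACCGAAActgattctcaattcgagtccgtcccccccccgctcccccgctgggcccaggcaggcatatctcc
The Saa3 window held 1 ISRE match and 1 C/EBP match, the Slc7a11 window held 2 CARE matches beside a GAS match and C/EBP matches, and the Irgm1 window held 2 overlapping ISRE matches. A match describes letters and is no evidence of binding.

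Over all 32841 RefSeq windows, 3.44% held an ISRE, 8.30% a GAS, 3.97% a CARE, 12.4% an ARE, 0.411% the NF-kB letters and 10.8% the C/EBP letters. Among the interferon-gamma genes listed below, 11 of 14 had a window and 7 of these held an ISRE. Of the 30 genes found higher across clusters, 25 had a window, of which 2 held an ISRE, 5 a GAS, 2 a CARE, 3 an ARE and 5 a C/EBP match.

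The control pia library held 6591898 UMIs (unique molecular identifiers, each counting 1 captured transcript) and the 24 h library 9043418, with medians of 2031 and 1836.5 UMIs per annotated cell. The mitochondrial share of UMIs was lower at 24 h in 14 of 14 clusters, from 1.18% to 4.16% in control and from 1.09% to 2.26% at 24 h. The ribosomal protein share was higher in 11 clusters. The counts of genes were repeated with totals that leave out mitochondrial and ribosomal protein genes, as given in the closing sections. What else these shares may change in the results was not tested. The pia libraries shared 13 cell barcodes. One label of the control pia library, its title, gives brain parenchyma where the others give pia mater, so its make-up was compared with control brain. The microglia clusters were 10.4% of control pia and 86.9% of control brain, whereas CAM and Macro_2 clusters were 68.0% and 9.94%.

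Cluster names were checked against marker genes, summed as CPM, the UMIs of a gene per 1000000 UMIs of its cluster. CAM_1 and CAM_2 held border macrophage markers at 4997 and 4858 CPM in control. The Granulo_1 cluster went against its name in control pia, where its 55 cells held 75239 CPM of macrophage markers and 154 CPM of granulocyte markers. At 24 h its 303 cells held 32624 and 1555 CPM, so the cluster held different mixtures in the 2 libraries. Micro_2 carried 2854 CPM of microglia markers in control against 16808 in Micro_1, and more macrophage than microglia marker RNA. The same held for Micro_3 in control, with 22333 CPM of macrophage, 22515 of mDC2 and 10156 of microglia markers, against 8422, 3836 and 7756 CPM at 24 h. In any cluster, a change of mixture and a change of RNA per cell cannot be told apart. Results are also given without Granulo_1 and without Bc, the small B cell cluster whose median gene moved most.

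UMIs were summed per cluster and library and divided by the cluster total. A gene counted as measured in a cluster when at least 20 UMIs were expected in each sum, and as higher or lower when it passed 2-fold. Intervals are exact 95% Poisson, binomial or conditional intervals and cover counting error only. In all, 6134 genes were measured in at least 1 cluster and 2286 in at least 4. Of these 2286 genes, 766 passed 2-fold somewhere, 436 of them in 1 cluster only. The clusters come from the same 2 libraries and are not replicates of the stroke.

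With totals as the scale, the macrophages and dendritic cells had more genes higher than lower at 24 h, and T and NK cells had the smallest shares past 2-fold; the order of higher and lower turned with another scaling in Macro_2 and mDC2, and in CAM_1 median of ratios scaling gave 225 higher and 243 lower. In CAM_1, 258 of 5568 measured genes were higher (4.63%) and 216 were lower (3.88%). In Macro_2, 263 of 5576 genes were higher (4.72%) and 141 lower (2.53%), and in CAM_2 188 of 2159 were higher (8.71%) and 89 lower (4.12%). Granulo_1 had the largest share of higher genes, 150 of 757 (19.8%), with 36 lower (4.76%). Among the dendritic clusters, mDC1 had 100 of 963 genes higher (10.4%) and 34 lower (3.53%), and mDC2 150 of 2222 higher (6.75%) and 95 lower (4.28%).

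Microglia are the resident macrophages of the brain itself and made up a minority of the pia cells. Micro_1 had 138 of 2392 genes higher (5.77%) and 96 lower (4.01%), Micro_2 41 of 511 higher (8.02%) and 30 lower (5.87%), and Micro_3 45 of 694 higher (6.48%) and 38 lower (5.48%). The stress_Myeloid cluster had 21 of 357 genes higher (5.88%) and 8 lower (2.24%). T cells (Tc) had 17 of 1384 genes higher (1.23%) and 21 lower (1.52%), NK cells 9 of 600 higher (1.5%) and 16 lower (2.67%), ILC2 15 of 268 higher (5.6%) and 8 lower (2.99%), and Bc 8 of 415 higher (1.93%) and 48 lower (11.6%).

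The direction of these counts depended on the scaling in several clusters. Before rescaling, the median gene stood at -0.45 in Bc, 0.35 in Granulo_1, 0.20 in mDC1 and 0.12 in CAM_2, Macro_2, Micro_3 and mDC2 (log2). With TMM scaling, higher and lower genes numbered 177 and 212 in Macro_2, 97 and 110 in Micro_1, 19 and 19 in Bc, 35 and 3 in ILC2, 16 and 8 in NK, and 17 and 13 in stress_Myeloid. With median of ratios scaling they numbered 153 and 125 in CAM_2, 102 and 68 in Granulo_1, 179 and 208 in Macro_2, 91 and 116 in Micro_1, 34 and 53 in Micro_3, 73 and 57 in mDC1, 94 and 126 in mDC2 and 20 and 17 in Bc. Micro_2 had 35 higher and 37 lower genes with that scaling. Which of the 2 directions prevailed was therefore not settled in CAM_1, Macro_2, Micro_1, Micro_2, Micro_3, mDC2, NK and Bc.

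**Figure D1:**
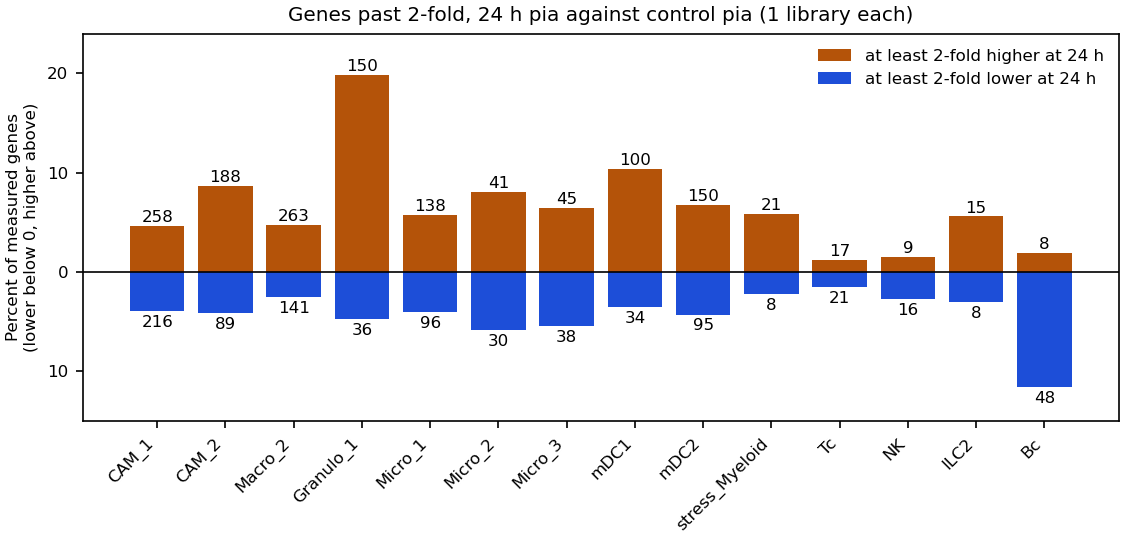
Percent of measured genes (vertical axis) at least 2-fold higher (bars above 0) or lower (bars below 0) at 24 h in each of the 14 clusters, with the number of genes on each bar. Granulo_1 has the tallest upper bar, 150 of 757 genes, and Bc the deepest lower bar, 48 of 415.

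A gene was called shared when at least 4 clusters measured it and at least 75% of them passed 2-fold the same way. Where both myeloid and lymphoid clusters measured it, a cluster of each kind had to pass. Of the 2286 genes, 30 were shared and higher (1.31%) and 12 were shared and lower (0.525%). Without Granulo_1 and Bc these numbers were 21 and 12. With median of ratios scaling they were 24 and 20. Of the 30 higher genes, 3 were measured in a lymphoid cluster, as were 2 of the 12 lower genes, against 1288 of the 2286. The condition on both kinds removes genes that passed in no lymphoid cluster measuring them, so these low shares are partly set by the rule. The shared higher genes describe mainly the myeloid clusters.

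**Figure D2:**
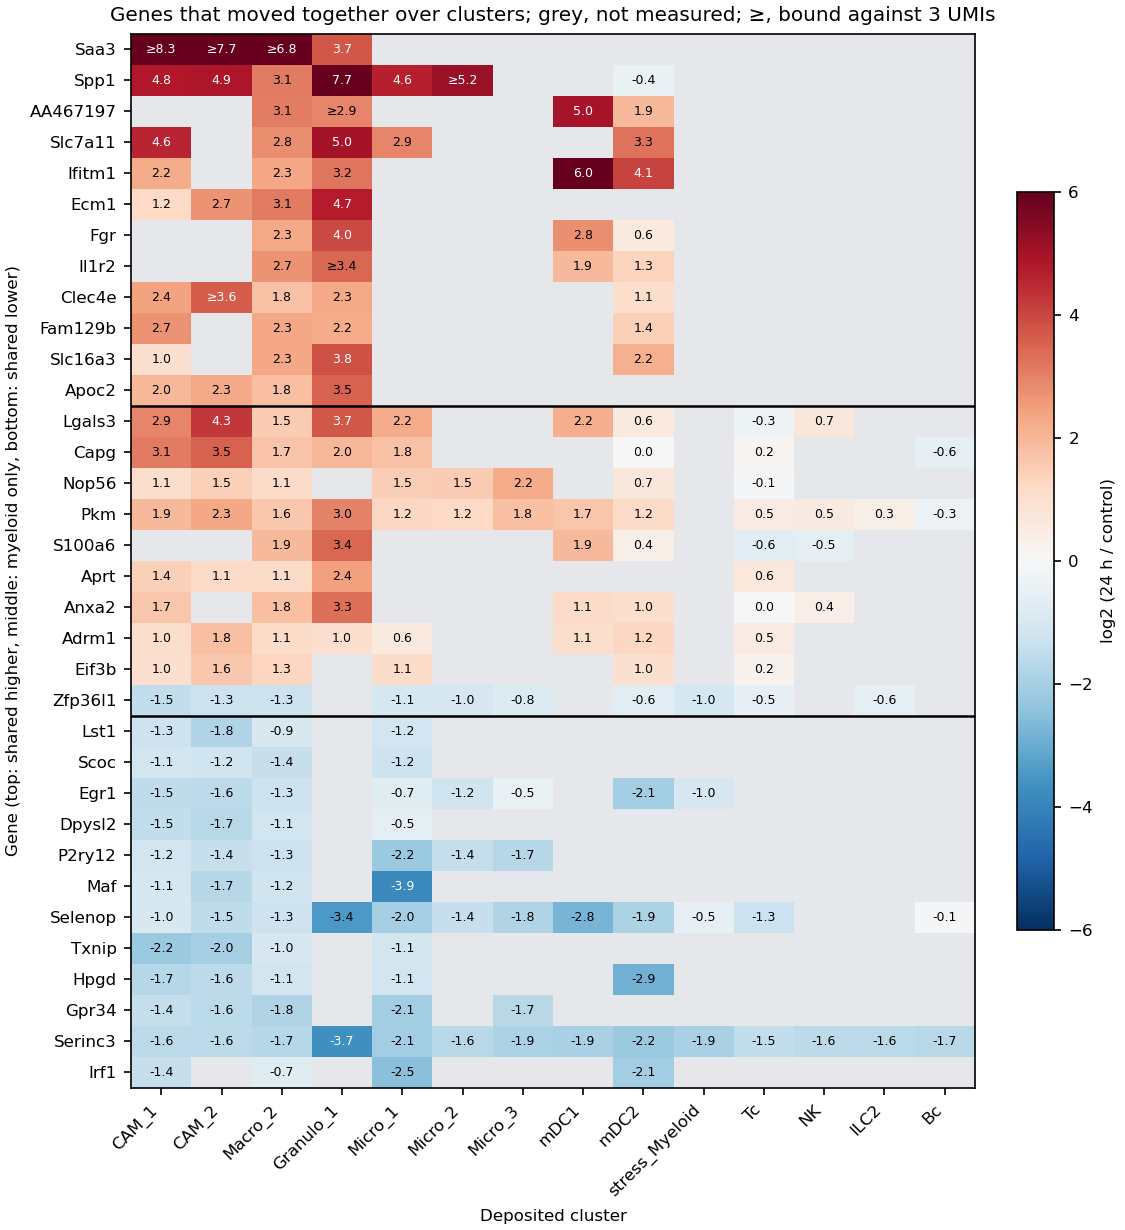
Log2 ratio of CPM at 24 h over control for 12 shared higher genes (top), 10 genes that passed 2-fold across myeloid clusters only (middle) and 12 shared lower genes (bottom), in each of the 14 clusters. Grey marks a gene not measured, and the sign ≥ marks a bound against 3 UMIs in a library with none. Values resting on 1 to 3 UMIs, such as Spp1 in Granulo_1, carry wide intervals given in the text, and Serinc3 is the only row without grey.

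Saa3, an acute-phase serum amyloid A protein, went from no UMI to abundant in the border macrophages. CAM_1 held 0 Saa3 UMIs in control and 1249 at 24 h, at least 311-fold more, and CAM_2 held 0 and 921, at least 214-fold more. At 24 h this was 680 CPM (642 to 718) in CAM_1. The Saa3 RNA was unevenly spread: 12.9% of CAM_1 and 18.0% of CAM_2 cells held a UMI, and single cells held 14.2% and 27.7% of the UMIs. In Granulo_1, Saa3 rose from 132 to 1853 CPM, 14-fold (7.99 to 27.1), with all 12 control UMIs in 1 cell.

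Lymphocytes do not make Saa3, so their share of cells with a UMI was taken as a reference, while free RNA itself was not measured. At 24 h the share was 3.46% of Tc and 5.83% of the 120 NK cells. The median was 1052 UMIs per Tc cell against 1988 in CAM_1 and 1160 in CAM_2. In Macro_2, Saa3 stood at 0 and 234 UMIs, but 5.77% of its cells held a UMI, a share no higher than that of NK cells, and 26.9% of the UMIs came from 1 cell. The share is therefore not read as expression across Macro_2, and the part of free RNA in the sum was not tested. Without Macro_2, 3 clusters would measure Saa3, fewer than the 4 that a shared gene needs. Micro_1 had 3.54%, mDC1 3.98% and mDC2 4.21% of cells with a Saa3 UMI, none above the NK share.

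Spp1, which encodes the secreted matrix protein osteopontin, was 28.4-fold higher in CAM_1 (20.9 to 39.5), from 30.6 to 867 CPM. In CAM_2 it went from 28.3 to 869 CPM, 30.7-fold (16.0 to 67.7), and in Macro_2 from 70.1 to 603 CPM, 8.60-fold (7.30 to 10.2). Cells with a Spp1 UMI rose from 4.01% to 32.8% in CAM_1, while in Tc they were 1.59% and 7.27%. Micro_2 held no Spp1 UMI in control and 1424 CPM at 24 h, at least 36.8-fold more. In Granulo_1 the ratio rests on 1 control UMI (interval 56.4 to 12420) and in Micro_1 on 2 (8.19 to 263). The exception was mDC2, where Spp1 was 109 CPM in control and 83.7 CPM at 24 h.

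Slc7a11, the light chain of the cystine and glutamate antiporter that feeds glutathione synthesis, passed 2-fold in all 5 clusters that measured it. It was 5.10 CPM in control CAM_1 and 131 CPM at 24 h, 25.7-fold (12.3 to 64.7). Macro_2 went from 37.3 to 260 CPM, 6.97-fold (5.54 to 8.85), Micro_1 from 21.8 to 172 CPM, 7.90-fold (3.74 to 19.2), and mDC2 from 18.5 to 189 CPM, 10.2-fold (4.78 to 26.0). In Granulo_1, 44.6% of cells held a Slc7a11 UMI at 24 h, and the ratio rests on 1 control UMI (8.46 to 1878). Only 0.346% of Tc cells held a Slc7a11 UMI at 24 h.

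**Figure D3:**
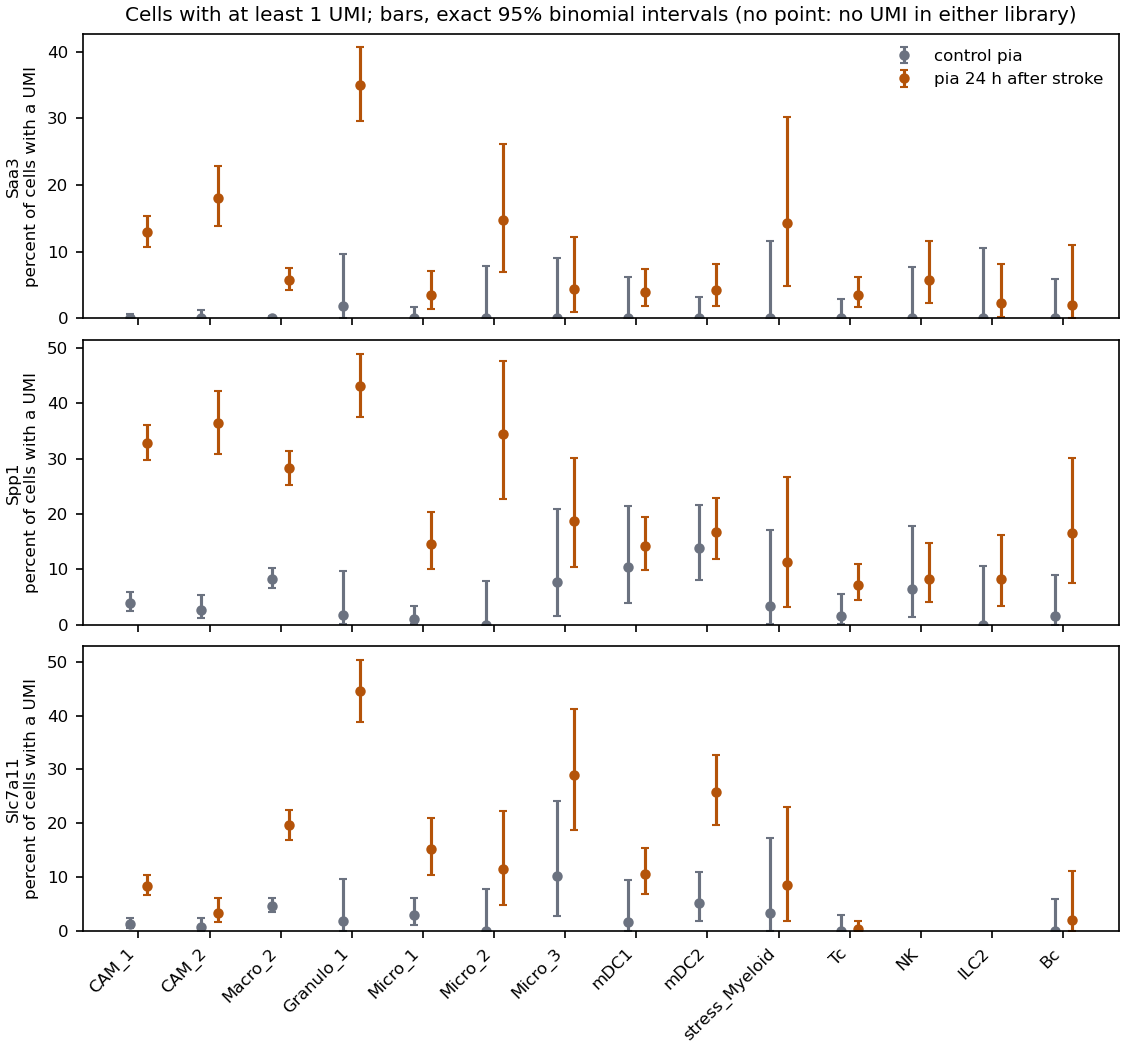
Percent of cells with at least 1 UMI (vertical axes) of Saa3, Spp1 and Slc7a11 in the 14 clusters of control pia (grey) and pia at 24 h (orange), with exact 95% binomial intervals. For Saa3 the CAM_1, CAM_2 and Granulo_1 points at 24 h stand above those of Tc and NK, the lymphocyte reference, and for Slc7a11 the Tc point stays at 0.346%.

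Several shared higher genes encode innate immune proteins. Clec4e, the C-type lectin Mincle that senses dead cells, went from 32.8 to 177 CPM in CAM_1 (5.41-fold), from 71.4 to 241 in Macro_2 (3.38-fold) and from 154 to 777 in Granulo_1 (5.03-fold), and CAM_2 held 0 and 53 UMIs, at least 12.3-fold more. Il1r2, the decoy receptor for interleukin-1, went from 195 to 765 CPM in mDC1 (3.93-fold), from 315 to 790 in mDC2 (2.51-fold) and from 7.88 to 52.2 in Macro_2 (6.62-fold). Il1b itself did not pass 2-fold in a cluster, with 758 and 904 CPM in CAM_1, 1082 and 1421 in Macro_2 and 1812 and 1445 in mDC2. Ifitm1, an interferon-inducible membrane protein, reached its largest change in mDC1, from 54.5 to 3698 CPM (67.8-fold, 32.9 to 169), where cells with a UMI went from 8.77% to 82.7%, beside 1.38% of Tc at 24 h. Ifitm1 is also a gene by which the study named that cluster. In mDC2 Ifitm1 went from 31.8 to 553 CPM (17.4-fold, 9.82 to 34.1). Cfp encodes properdin, which stabilises the complement convertase, and passed 2-fold in all 6 clusters measuring it, from 2.01-fold in mDC2 to 14.7-fold in mDC1.

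Other shared higher genes encode enzymes and transporters. Apoc2, the cofactor of lipoprotein lipase, went from 14.6 to 58.2 CPM in CAM_1 and was 5.12-fold higher in CAM_2, 3.56-fold in Macro_2 and 12.9-fold in Granulo_1. Slc16a3, a lactate exporter, was 4.98-fold higher in Macro_2 and 4.71-fold in mDC2. In CAM_1 it went from 9.47 to 19.0 CPM, which on the scale with 0.5 UMI added (log2 0.97) fell just short of 2-fold. Mthfd2, a mitochondrial folate enzyme, passed 2-fold in all 5 clusters measuring it, with 3.64-fold in CAM_1 and 4.35-fold in mDC1. Slc7a5, the large neutral amino acid transporter, was 2.76-fold higher in CAM_1 and 2.42-fold in Micro_1, and 1.84-fold higher in Macro_2. The dendritic clusters held 2 control Slc7a5 UMIs each and reached 320 CPM in mDC1 (ratio interval 5.61 to 171) and 147 CPM in mDC2 (7.46 to 234). The spermidine synthase gene Srm (median log2 1.95), the haem synthesis gene Alas1 (1.18), the mitochondrial import gene Tomm40 (1.71) and the glutathione transferase Gsto1 (1.27) were shared as well.

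Ecm1, an extracellular matrix protein, was 2.29-fold higher in CAM_1, 7.12-fold in CAM_2 and 8.88-fold in Macro_2. Ccl6, a macrophage chemokine, was measured in 10 clusters and passed 2-fold in 8, among them CAM_1 from 188 to 1185 CPM (6.31-fold) and CAM_2 from 299 to 2630 CPM (8.81-fold), while mDC2 had 503 and 482 CPM. AA467197 was 8.46-fold higher in Macro_2 and 3.86-fold in mDC2. The Src-family kinase gene Fgr was 4.88-fold higher in Macro_2 and 1.53-fold in mDC2, and Fam129b was 6.63-fold higher in CAM_1, 5.11-fold in Macro_2 and 2.81-fold in mDC2. Among the other shared higher genes, Pirb, an inhibitory receptor, passed 2-fold in 6 of 6 clusters with a median log2 of 1.62, and Msrb1, which repairs oxidised methionine, in 5 of 6 with a median of 1.35. Ctla2a (1.61), Tspan4 (1.48), Napsa (1.47), Tmem189 (1.37), Taf10 (1.21), Adssl1 (1.93), Ramp3 (1.87) and Ifitm6 (1.77) completed the 30.

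Serinc3, a membrane protein of the serine incorporator family, was lower in every cluster. It was the only one of 166 genes measured in all 14 clusters to pass 2-fold in all of them, with log2 ratios from -3.70 in Granulo_1 to -1.46 in Tc. In CAM_1 Serinc3 fell from 1573 to 520 CPM, 3.02-fold (2.80 to 3.27), and in Macro_2 from 1398 to 426 CPM, 3.29-fold. In Micro_1 it went from 1914 to 448 CPM and in mDC2 from 593 to 126 CPM. The lymphoid clusters moved with the myeloid ones, from 477 to 173 CPM in Tc, 1031 to 350 in NK, 1168 to 386 in ILC2 and 904 to 278 in Bc.

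**Figure D4:**
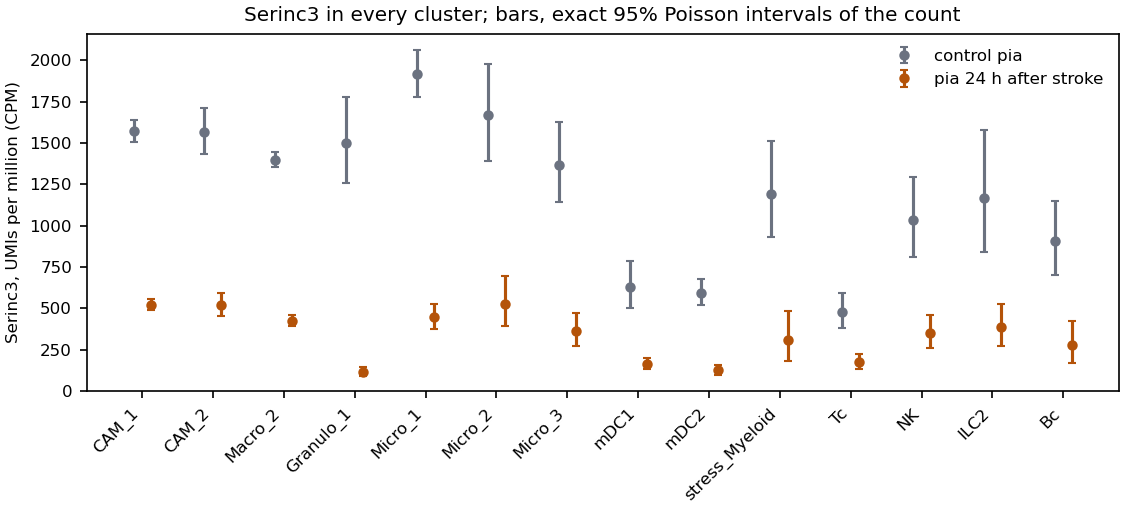
Serinc3 in CPM (vertical axis, from 0) in control pia (grey) and in pia at 24 h (orange) for the 14 clusters, with exact 95% Poisson intervals. The orange point is below the grey one in all 14 clusters, from 1573 to 520 CPM in CAM_1 and from 477 to 173 CPM in Tc.

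Of the 166 genes measured everywhere, 72 were ribosomal protein or mitochondrially encoded genes, 14 were lower in all clusters and 1 was higher in all. The higher one was Cycs, cytochrome c, at 309 and 531 CPM in CAM_1 and 384 and 486 in Tc, with a lowest log2 ratio of 0.0076. Among the lower ones were mt-Nd4, mt-Atp6, mt-Co3, mt-Cytb and mt-Co2. Some came close to level in a cluster, such as mt-Atp6 at -0.011 and Actb at -0.023. Such margins are smaller than the shift of the median gene in several clusters, and these counts were not repeated with another scaling. Itm2b, a membrane protein of the BRICHOS family, fell from 4428 to 1887 CPM in CAM_1 and had 1906 and 1210 CPM in Tc. B2m, the light chain of MHC class I, had log2 ratios from -1.24 to -0.48 and passed 2-fold in 3 clusters, with 3648 and 2158 CPM in CAM_1 and 7241 and 4875 in Tc. Actb and Tmsb4x, both of the actin cytoskeleton, had median log2 ratios of -0.87 and -0.74.

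Selenop, a selenium carrier made by resident macrophages, was measured in 12 clusters and passed 2-fold lower in 9. It went from 7203 to 2507 CPM in CAM_2 (2.87-fold), from 2142 to 900 in Macro_2 (2.38-fold) and from 4281 to 1067 in Micro_1 (4.01-fold). In CAM_1 it was 4389 and 2255 CPM (1.95-fold), and in Tc, which do not make it, 262 and 108 CPM. The shared call needed a pass in Bc or Tc, the lymphoid clusters that measured Selenop. The summed macrophage markers in Tc also fell, from 5277 to 2018 CPM. The part of free RNA in the Tc value, and so in the shared call, was not tested. The transcription factor gene Maf, which maintains tissue macrophage identity, was 2.11-fold lower in CAM_1, 3.33-fold in CAM_2 and 2.27-fold in Macro_2. Hpgd, which inactivates prostaglandin E2, fell from 339 to 104 CPM in CAM_1 (3.26-fold), from 211 to 94.9 in Macro_2 (2.22-fold) and from 140 to 18.2 in mDC2 (7.71-fold). Txnip, a thioredoxin inhibitor that restrains glucose uptake, fell 4.67-fold in CAM_1 and 3.97-fold in CAM_2.

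P2ry12 and Gpr34, receptors known from microglia, were lower in microglia and macrophages alike. In Micro_1, P2ry12 fell from 3331 to 720 CPM, 4.63-fold (4.02 to 5.35), and cells with a UMI fell from 92.3% to 50.5%. In CAM_1 it went from 127 to 56.6 CPM (2.25-fold), and 0.346% of Tc cells held a UMI at 24 h. Gpr34 fell from 1046 to 247 CPM in Micro_1 (4.23-fold), from 154 to 56.6 in CAM_1 (2.73-fold) and from 116 to 32.6 in Macro_2 (3.56-fold). The summed microglia markers moved with them in the macrophages, from 1243 to 662 CPM in CAM_1 and from 2061 to 1265 in Macro_2, and their part in the P2ry12 and Gpr34 values was not tested. Irf1, an interferon regulatory factor, fell 2.65-fold in CAM_1, 5.87-fold in Micro_1 and 4.29-fold in mDC2, and was 1.67-fold lower in Macro_2. Egr1, an immediate early gene, fell 2.85-fold in CAM_1, 2.44-fold in Macro_2 and 4.37-fold in mDC2. The median log2 ratios of Dpysl2, Scoc and Lst1 were -1.29, -1.22 and -1.21.

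Genes that lymphoid clusters also measured, but that passed 2-fold across the myeloid clusters only, numbered 11 higher and 1 lower. They stand beside 1288 genes measured in at least 4 clusters of which at least 1 was lymphoid. There was no gene of the opposite kind. That kind needed several lymphoid clusters to measure the gene, and these measured from 268 genes in ILC2 to 1384 in Tc, so its absence says little. Lgals3, the lectin galectin-3, was 7.78-fold higher in CAM_1 (16.0 to 125 CPM), 19.7-fold in CAM_2 (47.1 to 928), 2.91-fold in Macro_2 and 4.62-fold in mDC1. In NK cells it was 275 and 447 CPM (ratio interval 0.971 to 2.83), and in Tc 366 and 300. Pkm, the last enzyme of glycolysis, passed 2-fold in all 9 myeloid clusters that measured it, with 189 and 730 CPM in CAM_1 (3.87-fold) and 238 and 738 in Macro_2 (3.11-fold). In Tc Pkm was 488 and 690 CPM (1.41-fold). Capg, an actin capping protein, was 8.92-fold higher in CAM_1 and 12.5-fold in CAM_2, and S100a6, a calcium-binding protein, 3.81-fold in Macro_2 and 3.89-fold in mDC1. Zfp36l1, which promotes decay of cytokine mRNAs, was the one lower gene, from 659 to 241 CPM in CAM_1 (2.74-fold) and from 416 to 170 in Macro_2 (2.45-fold).

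Gene lists were then counted over gene and cluster pairs. Over all 23866 measured pairs, 5.88% were higher and 3.67% lower. Glycolysis genes were higher in 35 of 108 pairs (32.4%) and lower in 0. They were higher in 7 of 7 measured members in Granulo_1, 6 of 8 in CAM_2, 7 of 18 in Macro_2 and 3 of 17 in CAM_1, with medians of 1.76, 1.28, 0.71 and 0.83. In Tc and NK 0 of 7 and 0 of 6 members passed 2-fold, with medians of 0.09 and -0.08. Ldha, which makes lactate, was 2.55-fold higher in CAM_2, 3.45-fold in Granulo_1 and 2.10-fold in Macro_2.

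Monocyte genes were higher in 63.6% of 33 pairs and lower in 3.03%, and alternative activation genes in 44.4% and 2.78% of 36. Genes with few control UMIs, such as Arg1 and Chil3, were measured only where they were high at 24 h. These shares are therefore partly set by the filter, and they include Granulo_1, whose mixture differed between the libraries. Chil3 and Fn1 belong to both lists, so the shares of the lists partly count the same genes. The median log2 ratio of the alternative activation list was 0.72 and went to -0.03 when cells were thinned to 1000 UMIs. In Macro_2, 6 of 7 monocyte genes were higher (median 2.87). The summed markers Ly6c2, Ccr2, Plac8 and Vcan moved less in Macro_2, from 275 to 373 CPM. Fn1, fibronectin, went from 2.49 to 69.4 CPM there (27.9-fold, 12.4 to 77.5), and Plac8 was 22.9-fold higher. Arg1, the arginase of alternatively activated macrophages, stood at 0 UMIs in control CAM_1 and 176 at 24 h, at least 43.8-fold more, yet 1.86% of the cells held it and 1 cell held 29.0% of the UMIs. In Macro_2 Arg1 went from 0 to 72 UMIs in 2.52% of cells, and Tc had 0.346% of cells with a UMI at 24 h. The genes by which stroke-associated myeloid cells (SAMC) are described were higher in 27.4% of 73 pairs and lower in 4.11%; the study chose that list on libraries of this series, so its direction is not independent evidence.

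MHC class II and interferon-gamma genes had larger shares of lower pairs. MHC class II genes were lower in 32.9% of 79 pairs and higher in 0, interferon-gamma genes lower in 36.7% of 30 and higher in 0, type I interferon genes lower in 13% and higher in 6.52% of 92, and MHC class I genes lower in 5.69% of 123, the last near the share over all pairs. H2-Aa, a class II alpha chain, was 2.37-fold lower in CAM_1 (797 to 336 CPM), 2.51-fold in CAM_2 and 16.7-fold in Micro_3 (2544 to 153 CPM, beside the lower macrophage markers there), and 1.49-fold lower in Macro_2, its main source among the macrophages, at 17411 and 11717 CPM. Tc do not express class II, yet H2-Aa was 692 and 238 CPM in Tc (2.90-fold), and the part of free RNA in these values was not tested. Macro_2, mDC1 and mDC2, which held most class II RNA, had 0 of 9, 0 of 7 and 0 of 9 list members past 2-fold. Irgm1, an interferon-induced GTPase whose promoter is shown above, fell from 35.0 to 2.72 CPM in CAM_1 (12.8-fold, 5.14 to 41.4) and from 28.6 to 4.15 in Macro_2 (6.90-fold, 3.17 to 17.8).

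Immediate early genes were lower in 44 of 206 pairs (21.4%) and higher in 0, with 8 of 21 in CAM_1, 7 of 18 in CAM_2, 4 of 21 in Macro_2, 6 of 19 in mDC2 and none of 12 in Tc. Fos fell from 2030 to 810 CPM in CAM_1 (2.51-fold). Glucocorticoid-responsive genes were lower in 26.5% and higher in 4.41% of 68 pairs, led by Tsc22d3, which fell from 1850 to 679 CPM in CAM_1 (2.73-fold). Border macrophage identity genes were lower in 20.8% and higher in 8.33% of 72 pairs, with 7 of 16 in Macro_2, 5 of 17 in CAM_2 and 2 of 17 in CAM_1. Stab1, a scavenger receptor, fell from 424 to 184 CPM in CAM_1 (2.30-fold) and 2.41-fold in CAM_2.

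Chemokines of the CC class moved both ways, 28.6% of 84 pairs higher and 13.1% lower, as did those of the CXC class, 14.3% higher and 28.6% lower of 28. Iron and haem genes were higher in 16.3% and lower in 2.17% of 92 pairs, unfolded protein response genes in 9.23% and 1.54% of 130, and complement genes in 15.7% and 13.3% of 83. NF-kB genes stood at 9.89% higher and 7.69% lower of 91 pairs, interleukins and receptors at 11.1% and 7.41% of 54, lymphocyte trafficking genes at 15.7% and 21.6% of 51, lymphoid effectors at 19.0% and 14.3% of 21, and circadian genes at 5.88% and 17.6% of 17. Heat shock genes stood at 3.03% and 1.01% of 99. Cell cycle genes were lower in 26.1% of 23 pairs and higher in 0. Among markers of other cells, haemoglobin and endothelial genes were measured nowhere, 0 of 3 fibroblast and 0 of 2 myelin pairs passed 2-fold, and neutrophil genes were higher in 1 of 6. Microglia markers were lower in 19 and higher in 1 of 39 pairs, B cell markers lower in 4 and higher in 3 of 15, and T cell markers past 2-fold in 0 of 9.

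**Figure D5:**
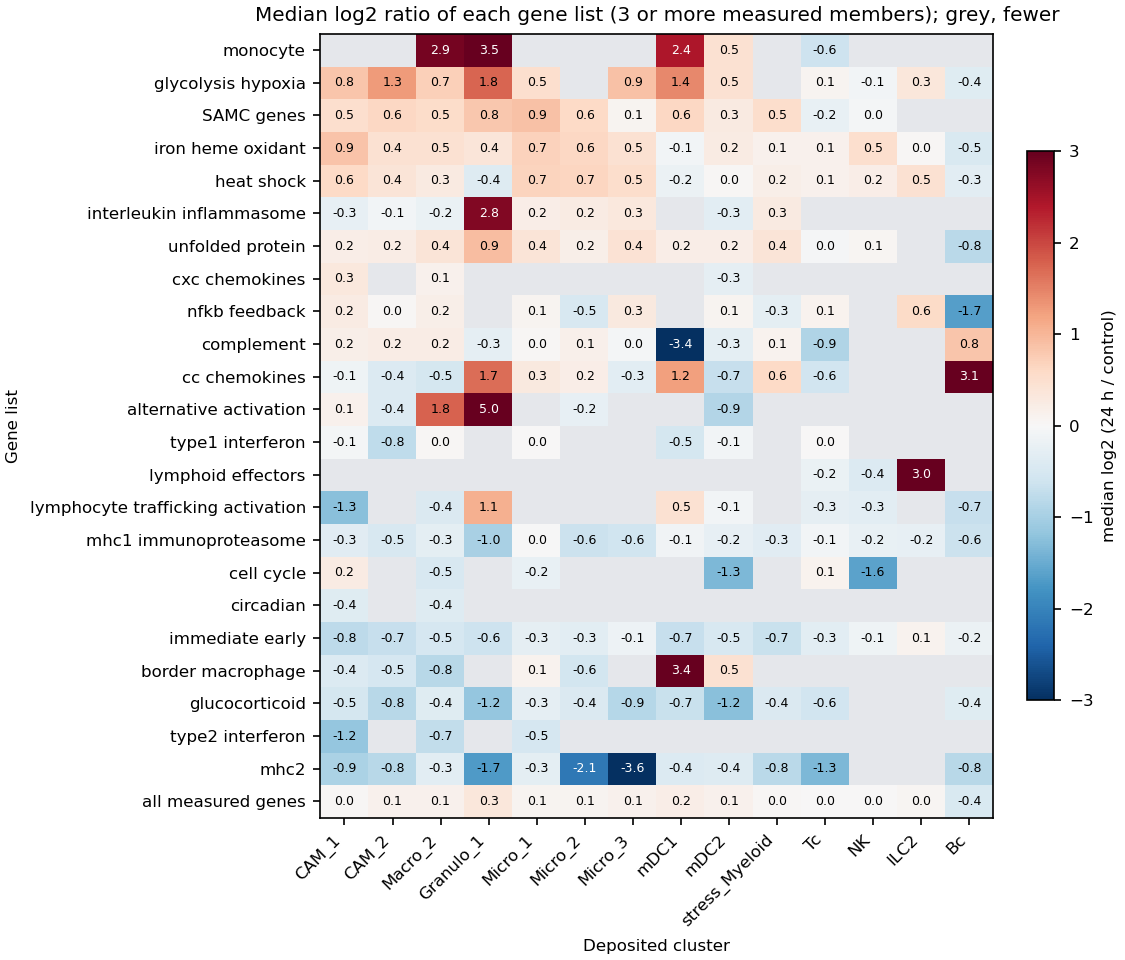
Median log2 ratio of CPM at 24 h over control for gene lists (rows) in the 14 clusters (columns). Shown are lists with at least 3 measured members in a cluster, without the lists of markers of other cells. A member with no UMI in a library enters as a bound against 3 UMIs. The last row holds all measured genes. Grey marks fewer than 3 measured members. Glycolysis stands at 1.76 in Granulo_1 and 1.28 in CAM_2 and near 0 in Tc and NK.

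Macro_2 fell from 37.2% (35.4 to 39.0) to 21.2% (19.9 to 22.5) of the annotated pia cells, CAM_1 was 20.4% and 21.9%, Granulo_1 went from 1.96% to 7.73% and mDC1 from 2.03% to 5.76%. Within Macro_2, the chemokine gene Ccl8 fell from 212 to 21.9 CPM (9.66-fold) and the growth factor gene Igf1 from 31.9 to 8.30 (3.85-fold). Thbs1, thrombospondin-1, rose 7.43-fold in Macro_2 (4.82 to 11.9) and 10.8-fold in CAM_1 (4.01 to 41.1). In the border macrophages Ccl9 rose from 247 to 1055 CPM in CAM_1 (4.27-fold) and from 167 to 1397 in CAM_2 (8.39-fold), and the iron exporter gene Slc40a1 fell 2.57-fold and 3.46-fold.

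In Granulo_1, Chil3, a chitinase-like protein of monocytes and neutrophils, was held by 67.3% of the cells at 24 h (0.346% of Tc) and had 1 UMI in control (ratio interval 65.9 to 14514). S100a8, a neutrophil alarmin, held 0 and 340 UMIs, at least 13.5-fold more, with 24.7% of them in 1 cell. Macrophage genes were lower in the same cluster: C1qa fell from 3685 to 357 CPM (10.3-fold), Cd81 from 2615 to 144 (18.1-fold) and Apoe from 37068 to 6548 (5.66-fold). These values follow the marker sums given above.

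The mDC2 cluster, of the Cd209a-positive dendritic cells, moved both ways in chemokine genes, with a median log2 ratio of -0.69 over its CC chemokines. Ccl17 rose from 493 to 4569 CPM (9.28-fold, 7.99 to 10.8) and Ccl22, which binds the same receptor, from 294 to 1678 (5.71-fold). Ccr7, which guides dendritic cells to lymph nodes, rose from 503 to 1913 CPM (3.80-fold), with a UMI in 15.7% and 52.1% of cells beside 0.698% of CAM_1 at 24 h, whereas in Tc it fell 2.52-fold from 273 to 108 CPM. Inflammatory chemokines were lower, Ccl2 from 601 to 102 CPM (5.90-fold) and Ccl4 from 567 to 142 (3.99-fold). The subset marker Cd209a itself fell from 5053 to 2413 CPM (2.09-fold).

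In mDC1, the markers did not all go with the name. Its 4 listed markers summed to 374 CPM in control and 3884 at 24 h. At 24 h nearly all of this was Ifitm1, given above, by which the study named the cluster together with Clec9a. Clec9a and Xcr1, which define type 1 dendritic cells, were at 62.3 and 31.0 CPM and at 77.9 and 10.9 CPM, both below the count filter. Cd209a rose from 140 to 915 CPM (6.53-fold). C1qa fell from 1215 to 72.9 CPM (16.7-fold) beside a macrophage marker sum of 10261 and 3060 CPM.

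In Micro_1, Lilrb4a, an inhibitory receptor of activated microglia, rose from 51.7 to 454 CPM (8.77-fold), Lpl, lipoprotein lipase, from 19.1 to 141 (7.39-fold) and Tnf from 59.9 to 191 (3.19-fold). The heat shock gene Hspa1a rose from 667 to 1740 CPM (2.61-fold). Tnf was 1.13-fold lower in CAM_1 and 1.23-fold lower in Macro_2. In Micro_3, Gpr84, a receptor for medium-chain fatty acids, rose from 331 to 1623 CPM (4.90-fold) and Cd74, the class II invariant chain and nearly all of the mDC2 marker sum above, fell from 22504 to 3836 (5.87-fold).

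In Tc, Tnfrsf4, the costimulatory receptor OX40, rose from 157 to 489 CPM (3.12-fold), Ramp3 from 98.8 to 359 (3.63-fold) and Nfkb2 from 58.1 to 155 (2.66-fold), while Cd3g was 1871 and 1514 CPM. Lilrb4a was higher in Tc (3.69-fold), NK (3.00-fold) and ILC2 (6.17-fold). In the 33 and 85 ILC2, Csf2, the growth factor GM-CSF, rose from 278 to 2385 CPM (8.58-fold, 4.58 to 18.1) and Calca, the neuropeptide CGRP, from 1724 to 7213 (4.19-fold, 3.23 to 5.52). Il5, the eosinophil growth factor, held 1 and 321 UMIs (ratio interval 20.4 to 4527) in 3.03% and 29.4% of the ILC2, beside 0.349% of CAM_1 at 24 h, while their defining factor Gata3 was 834 and 772 CPM. In NK cells Ccl5 was 7549 and 12246 CPM (1.62-fold), and Gzma fell from 2516 to 1093 CPM (2.30-fold) with 43.7% of the control UMIs in 1 cell. In Bc, 1 cell held 62.7% of the Igha UMIs at 24 h, so immunoglobulin values there describe single cells.

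Genes past 2-fold in 1 cluster, with an interval that excludes no change, and under 1.5-fold in all others that measured them numbered 102. At least 3 others had to measure the gene, which left 2286 genes eligible. Of the 102, 28 were in mDC2, 17 in Micro_1, 13 in CAM_2 and 10 in Granulo_1. These clusters measured 2222, 2392, 2159 and 757 genes, so the split does not rank how specific each response was. Examples are Ktn1 in mDC2 (log2 1.66), Casp4 in mDC2 (-1.42), Slc15a3 in CAM_2 (1.61), Ifi205 in CAM_1 (1.74), Ccng2 in Micro_1 (-1.58), Ppt1 in mDC1 (-1.81), Avpi1 in Macro_2 (1.26) and Canx in Tc (-1.18). After thinning each cell to 1000 UMIs, 1 of the 102 still met the rule, and with median of ratios scaling 55 did.

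Brain parenchyma and dura, each compared with its own control, gave values for the same genes. The brain had more than 1 library at 24 h, of which 1 is shown, so their agreement is not given. Serinc3 was lower there too, from 2307 to 461 CPM in CAM_1 of 1 brain library and from 1815 to 695 CPM in CAM_1 of the dura. Spp1 in CAM_1 was 2.61 and 2079 CPM in that brain library and 15.1 and 126 CPM in dura. The value of 2.61 CPM rests on very few UMIs, as control brain CAM_1 held 383146 UMIs in all, so no fold is read from it. Slc7a11 in Macro_2 of the dura was 32.1 and 234 CPM, beside the 37.3 and 260 CPM of the pia. Saa3 in Macro_2 of the dura was 0 and 52.9 CPM. Irgm1 in Macro_2 of the dura was 36.0 and 1.26 CPM, the latter from very few of 1588741 UMIs. Il5 in ILC2 of the dura was 151 and 737 CPM. Pkm in Micro_1 was 260 and 271 CPM in that brain library, where the pia had a 2.36-fold difference. Kit versions may differ between the pia libraries and those of brain and dura, and their part was not tested. Whether these changes differ between tissues was not tested.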

How the data were processed

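Leukocytes of 8 libraries were sequenced, of which the 2 pia libraries are compared here. Per the labels, the authors deposited raw counts of UMIs per gene and cell, made with Cell Ranger 6.0 against mm10 (submitters' processing notes), and a table with the library and cluster of each annotated cell. Cells, filters and clusters are those of the authors, who removed doublets with scDblFinder, and no further doublet caller was run. UMIs were summed per cluster and library and scaled to CPM of the cluster total, with 0.5 UMI added for log2 ratios. Genes needed at least 20 expected UMIs in each sum, at the rate pooled over both libraries. With 1 library a side no test was run. A count of 0 allows up to 3 counts, which set the lower bounds. Scripts were tested on simulated data.

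The comparison, the 31 gene lists and the rules were chosen with earlier results of these data known. Named are the 12 shared genes with the largest and the 12 with the smallest median, the 10 myeloid-only genes furthest from 0, the single-cluster genes furthest up and down, and 3 members per list. Other genes named for a cluster, and the counts without Bc and Granulo_1, were chosen after their values were seen. Alternatives were TMM (edgeR) and median of ratios scaling, totals without mitochondrial and ribosomal genes, mean CPM over cells, cells thinned to 1000 UMIs, other filters, folds and pseudocounts.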

Additional observations from a re-analysis of the deposited data

Results flagged for a closer look

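Cxcl2, a neutrophil-attracting chemokine, and Ifi27l2a, an interferon-induced gene, were measured in several clusters and passed 2-fold in opposite directions in the single pair of pia libraries. The log2 ratio of Cxcl2 was 1.81 in ILC2, from 1001 to 3562 CPM, and -2.39 in Bc, from 585 to 106 CPM. The log2 ratio of Ifi27l2a was 1.04 in CAM_2, from 889 to 1836 CPM, and -1.74 in Granulo_1, from 861 to 258 CPM. These differences between clusters were not tested, since each side is 1 library. Granulo_1 held different mixtures of cells in the 2 libraries, and Bc had 60 and 48 cells.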

How the results depend on the processing

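No replicate could be left out because each side is 1 library, and no paired analysis was possible because the result comes from no test. The counts, in the order shared higher, shared lower, myeloid or lymphoid only, and single-cluster, were 30, 12, 12 and 102. They became 7, 5, 7 and 28 with at least 50 expected UMIs, 8, 4, 6 and 44 in cells thinned to 1000 UMIs, 113, 77, 73 and 450 at a fold of 1.5, and 123, 248, 123 and 13 with no low-count filter. Requiring every measuring cluster gave 13, 6 and 3 for the first 3 counts. In the 6 clusters with at least 100 cells, 17 genes were shared higher and 19 myeloid only. Median of ratios scaling gave 20 shared lower genes, and a pseudocount of 5 UMIs 62 single-cluster genes. TMM scaling, totals without mitochondrial and ribosomal genes, mean CPM over cells, the interval that excludes no change, and leaving out Bc and Granulo_1 (chosen after seeing the data) moved none of the 4 counts by over 1.5 times. Of the 30 higher and 12 lower genes, TMM kept 29 and 12, median of ratios 24 and 12, mean CPM 25 and 12, 50 expected UMIs 3 and 4, and thinned cells 4 and 3. Mean CPM kept 50 of the 102 single-cluster genes. Of 34 gene and 28 list medians, thinning moved 4 and 2. List medians near 0 changed sign, for interleukins from 0.09 to -0.01 (TMM) and -0.02 (median of ratios), CC chemokines from -0.04 to 0.05 (mean CPM) and T cell markers from 0.01 to -0.02 (median of ratios), -0.05 (mean CPM) and -0.22 (thinned). Thinning also turned NF-kB genes (0.11 to -0.05), circadian (-0.09 to 0.09), type I interferon (-0.07 to 0.06) and alternative activation genes (0.72 to -0.03). The cause of these movements was not tested, beyond the smaller number of UMIs and clusters under the stricter settings. Clusters under 100 cells and genes of few UMIs are limited by depth, and 1 library a side gives no error between mice.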

Other observations

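Of the 2286 genes measured in at least 4 clusters, 32 passed 2-fold higher in 1 cluster and lower in another. Several were chemokine, metal or antigen-presenting cell genes, and they are given as values chosen after they were seen. Mt2, a metallothionein, was 9.16-fold higher in CAM_2 (78.6 to 719 CPM) and 2.64-fold lower in mDC2 (1081 to 409 CPM). Ccl5, a T cell chemoattractant, was 2.65-fold higher in CAM_1 (14.6 to 38.6 CPM), while Micro_3 held 60 and 1 UMIs with 48.3% of the control UMIs in 1 cell. Plaur, the urokinase receptor, had a log2 ratio of 2.90 in CAM_2 and -1.32 in mDC2. Socs3, an inhibitor of cytokine signalling, stood at 1.16 in Tc and -1.71 in mDC2. Cd209a stood at 2.67 in mDC1 and -1.07 in mDC2, and the tetraspanin gene Cd63 at 1.43 in mDC2 and -1.65 in Granulo_1. Plac8 stood at 4.44 in mDC2 and -1.61 in Bc.

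In the macrophages, Klf2, a factor that restrains inflammatory activation, fell from 1318 to 550 CPM in CAM_1 (2.40-fold) and from 967 to 481 in Macro_2 (2.01-fold), and was 616 and 563 CPM in Tc. Nfkbiz, an atypical NF-kB inhibitor, fell 2.38-fold in CAM_1 and 2.13-fold in Macro_2 and was 1.23-fold lower in Micro_1. Manf, a factor of endoplasmic reticulum stress, was 2.27-fold higher in Macro_2 and 1.6-fold in CAM_1. The inflammatory chemokine gene Ccl3 was close to level in CAM_1, at 1609 and 1557 CPM.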
